A study of Mus musculus with 2 samples.

Results

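The mitochondrial ribosomal protein genes described here are the protein-coding Ensembl genes whose GENCODE mouse symbol begins with Mrpl or Mrps followed by a number and that stand in the gene tables of both libraries. They are 77 genes of the 21474 protein-coding genes and of the 43346 Ensembl entries measured, and they hold 48 large subunit symbols (Mrpl) and 29 small subunit symbols (Mrps). The annotation has 78 such symbols. The symbol left out is Mrpl33, whose identifier there is not the one in the tables. An older entry that shares 1 coding transcript with Mrpl33 stood at 114.7 TPM in replicate 1 and 82.5 TPM in replicate 2, where TPM is a length-corrected level that sums to the same total in each library.

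Polyadenylated RNA came from CH12.LX, an immortalized B cell lymphoma line of the mouse strain B10.H-2aH-4bp/Wts, and was read by single-end sequencing. Both libraries are biological replicates of 1 group, with 22986749 expected counts in replicate 1 and 25701557 in replicate 2. No second condition, line or time point was measured, so every difference below lies between 2 libraries of the same line. The B cell markers Cd79a (262.2 and 313.9 TPM in replicates 1 and 2) and Cd79b (525.0 and 545.3 TPM) were present, as were all 9 B cell markers examined. Of other lineages, 2 of 5 T cell, 2 of 4 myeloid, 0 of 2 stromal and 1 of 2 epithelial markers reached 1 TPM in both libraries, and the erythroid gene Hbb-bt had 5.52 and 5.05 TPM. Cd3e and Lyz2 stood below 0.1 TPM in both libraries.

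Mitochondria carry their own ribosome, which translates the few proteins that the mitochondrial genome encodes, all of them membrane subunits of oxidative phosphorylation complexes. Its RNA comes from the mitochondrial genome, but every one of its proteins is encoded in the nucleus, made in the cytosol and imported. The large subunit forms the peptide bond and holds the exit tunnel, and the small subunit holds the mRNA and the decoding site. Some proteins have counterparts in bacterial ribosomes and others are specific to mitochondria.

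A few starts of these genes show the letters that the promoters of the group hold more often than promoters at large, as counted further on. The first 3 belong to the 3 members with the highest mean level, Mrpl45 holds the most matches of the NRF1 core, and Mrps11 shares its start region with Mrpl46. Each sequence runs 5′ to 3′ on the strand of its gene from 150 bases before to 30 bases into the RefSeq transcript (GRCm38.p6), and capitals mark the NRF1 core on either strand, in Mrps21 also the ETS core near the end, and in Mrps11 the YY1 core.
Mrpl17, chr7:105811058-105811237, minus strand: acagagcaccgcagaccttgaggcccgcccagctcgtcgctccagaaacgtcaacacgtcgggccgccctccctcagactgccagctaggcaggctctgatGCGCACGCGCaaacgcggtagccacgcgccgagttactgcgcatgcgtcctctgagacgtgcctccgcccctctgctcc
Mrpl12, chr11:120484487-120484666, plus strand: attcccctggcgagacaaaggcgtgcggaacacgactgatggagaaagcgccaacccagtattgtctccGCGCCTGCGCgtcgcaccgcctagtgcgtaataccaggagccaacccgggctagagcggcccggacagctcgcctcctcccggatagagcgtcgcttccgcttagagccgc
Mrps21, chr3:95871485-95871664, minus strand: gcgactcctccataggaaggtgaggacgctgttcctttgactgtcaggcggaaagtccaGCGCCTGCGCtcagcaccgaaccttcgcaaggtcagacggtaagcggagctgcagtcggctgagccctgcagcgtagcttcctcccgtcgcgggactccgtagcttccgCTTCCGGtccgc
Mrpl45, chr11:97315566-97315745, plus strand: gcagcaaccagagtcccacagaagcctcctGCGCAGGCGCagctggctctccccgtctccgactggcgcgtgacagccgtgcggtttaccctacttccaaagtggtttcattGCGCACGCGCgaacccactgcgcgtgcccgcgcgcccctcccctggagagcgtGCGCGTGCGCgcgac
Mrps11, chr7:78782981-78783160, plus strand: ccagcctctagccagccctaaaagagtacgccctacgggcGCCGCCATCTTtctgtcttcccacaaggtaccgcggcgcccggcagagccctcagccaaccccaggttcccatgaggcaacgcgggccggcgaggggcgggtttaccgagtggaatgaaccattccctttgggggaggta

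All 77 members were detected, at 1 TPM or more in both libraries, against 48.0% of the 21474 protein-coding genes. Their median was 85.1 TPM in replicate 1 and 76.6 TPM in replicate 2, beside medians of 21.1 and 20.7 TPM for the 10317 detected protein-coding genes. Of the members, 74 stood above that detected median in both libraries, 61 stood at 50 TPM or more in both, and 10 were among the highest 10% of detected protein-coding genes in both. The middle member lay at percentile 83.3 of detected protein-coding genes in replicate 1 and at percentile 82.3 in replicate 2. Sorted by mean TPM, 40 members fell between 50 and 100 TPM, 12 between 10 and 50, 16 between 100 and 150, and 9 above that, of which 3 passed 200 TPM.

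**Figure D1:**
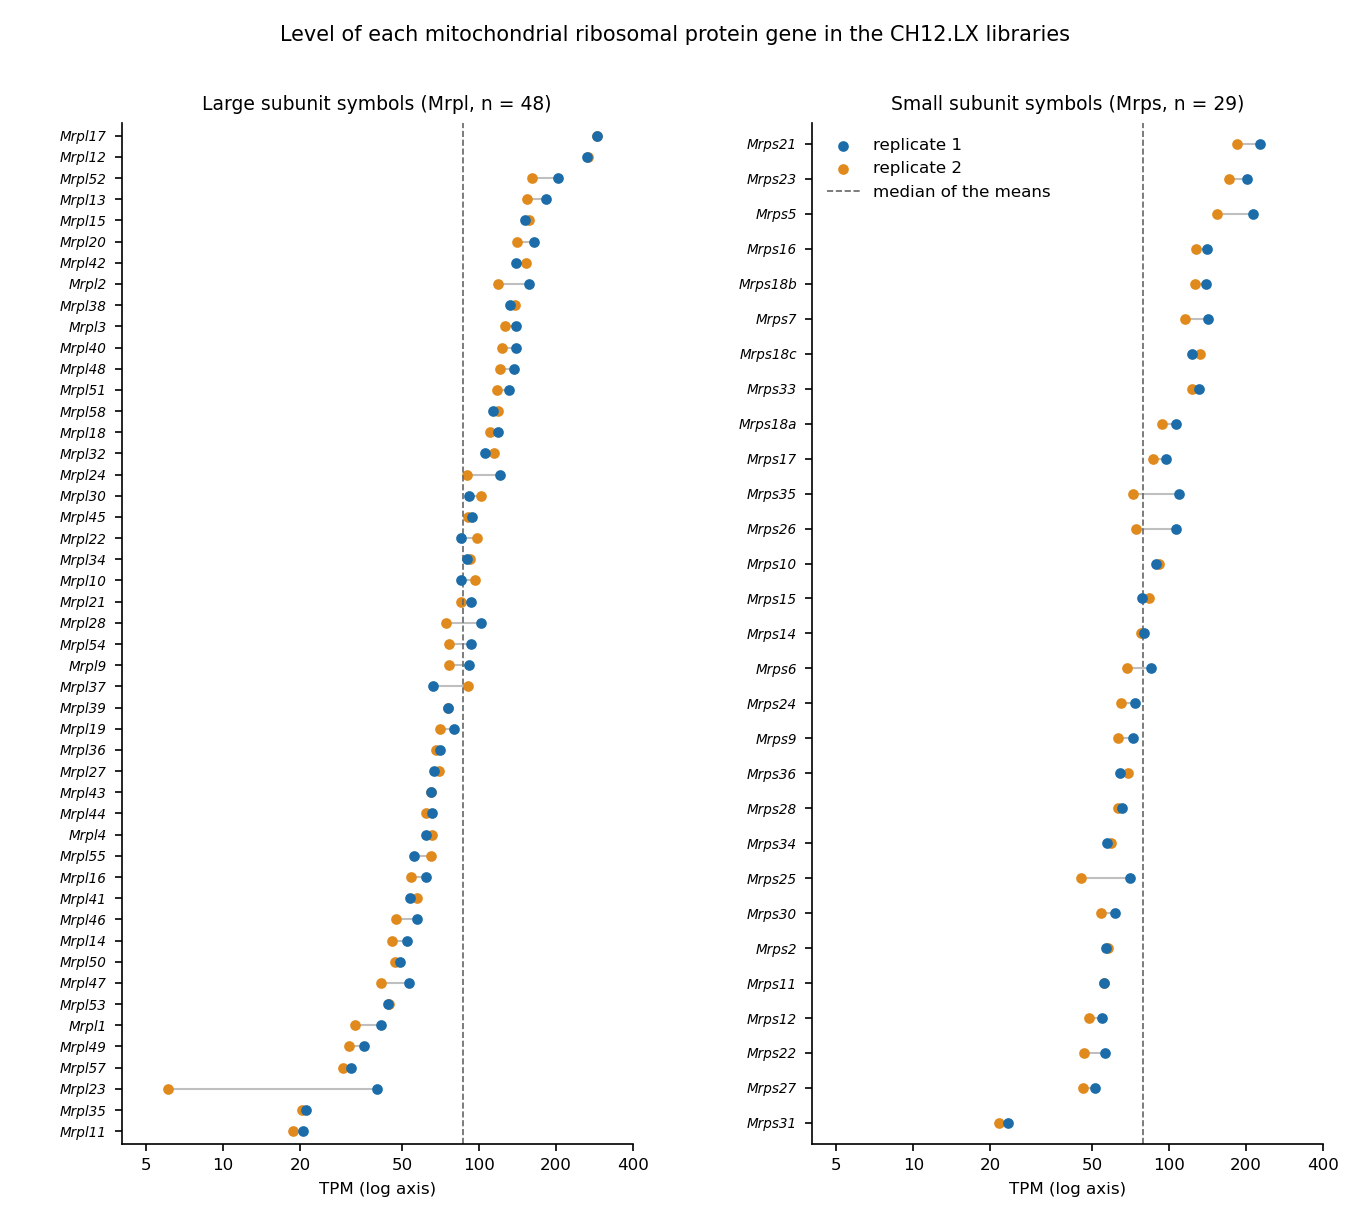
TPM on a log axis for each of the 48 Mrpl genes (left) and 29 Mrps genes (right), ordered by mean, with replicate 1 in blue, replicate 2 in orange and a dashed line at the median of the means. Mrpl17 and Mrpl12 lead the large subunit, Mrps21 leads the small subunit, and Mrpl23 has by far the widest gap between the libraries, at 39.8 and 6.08 TPM.

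Among large subunit members the top was held by Mrpl17, a bacterial-type protein, at 290.4 TPM in replicate 1 and 290.7 TPM in replicate 2 (290.5 ± 0.198, SD, n = 2). Mrpl12, the protein of the flexible stalk that meets the translation factors and is present there in several copies, followed at 263.8 TPM in replicate 1 and 266.7 TPM in replicate 2 (265.2 ± 2.07, SD, n = 2). Both genes were higher than every other member in both libraries, and the libraries hardly differed in them. Then came Mrpl52 at 204.6 and 160.7 TPM in replicates 1 and 2, a protein without a bacterial counterpart. Mrpl13 (182.4 and 154.4 TPM), Mrpl15 (151.9 and 157.6 TPM) and Mrpl20 (164.6 and 141.5 TPM), all of bacterial type, closed the leading 6. These 6 lead by mean TPM. The order of the last ones is not firm, since replicate 2 placed Mrpl15 above Mrpl13 and replicate 1 placed it below Mrpl20. Nor is the place of Mrpl15 and Mrpl20 among the 6 firm. Mrpl2 (157.2 TPM) stood above Mrpl15 in replicate 1, and Mrpl42 (153.3 TPM) stood above Mrpl20 in replicate 2.

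At the low end of the large subunit stood Mrpl11, a protein of the base of the same stalk, at 20.6 TPM in replicate 1 and 18.8 TPM in replicate 2 (19.7 ± 1.23, SD, n = 2). Mrpl35 had 21.1 and 20.3 TPM in replicates 1 and 2. The stalk protein genes Mrpl11 and Mrpl12 thus stood near opposite ends of the large subunit order, in both libraries but for Mrpl23 in replicate 2. Mrpl57 (31.6 and 29.5 TPM), Mrpl49 (35.4 and 31.1 TPM) and Mrpl1 (41.5 and 32.7 TPM) came next above, and Mrpl23, whose values rest on an unsure read assignment, is taken up below.

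In the small subunit Mrps21 led at 226.5 TPM in replicate 1 and 184.5 TPM in replicate 2 (205.5 ± 29.7, SD, n = 2). Mrps23, specific to mitochondria, had 200.8 and 171.6 TPM in replicates 1 and 2. Mrps5, which encodes a protein next to the mRNA path, had 213.8 and 154.4 TPM (184.1 ± 42.0, SD, n = 2). Mrps21 was the highest of these in both libraries, while Mrps5 stood above Mrps23 in replicate 1 and below it in replicate 2. Mrps16 (141.3 and 127.3 TPM), Mrps18b (139.3 and 126.4 TPM) and Mrps7 (142.1 and 115.4 TPM) followed by mean TPM. In replicate 2, Mrps18c (131.8 TPM) stood above all of these, and Mrps33 (122.5 TPM) stood above Mrps7.

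The lowest small subunit member was Mrps31 at 23.4 TPM in replicate 1 and 21.6 TPM in replicate 2 (22.5 ± 1.27, SD, n = 2). Mrps27, a pentatricopeptide repeat protein, had 51.2 and 46.2 TPM, and Mrps22 had 56.0 and 46.4 TPM in replicates 1 and 2. Mrps12, a protein of the decoding site, stood at 54.5 and 48.5 TPM, Mrps11 at 55.6 and 55.5 TPM, and Mrps2 at 56.8 and 57.8 TPM. These 5 lie close together, and Mrps31 is apart from them in both libraries.

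Several members have a role that their symbol does not tell. Mrps30 (61.3 and 54.0 TPM in replicates 1 and 2) and Mrps18a (106.3 and 93.4 TPM) sit in the large subunit of the mammalian particle in spite of their names. Mrps18b and Mrps18c are relatives of Mrps18a in the small subunit, and Mrps18c had 122.8 TPM in replicate 1 and 131.8 TPM in replicate 2. Mrpl58, a peptidyl-tRNA hydrolase built into the large subunit, had 113.2 and 118.3 TPM. Mrps36, whose product is now known as a part of the α-ketoglutarate dehydrogenase complex, had 64.0 and 69.1 TPM. All of these lay within the range of the other genes with the same kind of symbol.

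The subunits lay close to each other. The 48 Mrpl genes had a median of 87.8 TPM in replicate 1 and 80.9 TPM in replicate 2, and the 29 Mrps genes had 79.7 TPM in replicate 1 and 72.2 TPM in replicate 2. On the log2(TPM + 1) scale the large subunit median was higher by 0.14 in replicate 1 and by 0.16 in replicate 2 (SD over the libraries 0.015, n = 2). That gap is small beside the spread among genes, since the SD of log2 TPM of the mean level was 0.87 over Mrpl genes and 0.70 over Mrps genes. With Mrps30 and Mrps18a counted in the large subunit and Mrps36 left out, the gap of the mean levels was 0.11 in place of 0.13. It was 0.07 when TPM of transcripts annotated as protein coding were used alone, a setting chosen after seeing the data. Structural proteins of the particle whose symbols begin otherwise, such as Dap3, were left out of all these gaps. No test was run, because genes of a subunit are not replicates of each other.

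By summed TPM the Mrpl genes held 4687 TPM in replicate 1 and 4403 TPM in replicate 2, and the Mrps genes 2829 and 2477 TPM. All members took 0.504% of the expected counts in replicate 1, with a Wilson 95% interval from 0.501% to 0.507%. The share was 0.469% in replicate 2, with an interval from 0.466% to 0.472%. The intervals do not overlap, but they hold counting error alone, and PCR copies of a molecule are counted as separate reads. The 45 members listed as bacterial type had a median of 85.5 TPM in replicate 1 and 83.3 TPM in replicate 2. The 32 listed as mitochondria specific had 72.8 and 73.3 TPM. This second list holds Mrps18a and Mrps18b, although their relative Mrps18c is in the first, so the division is not strict.

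Levels varied among members. The highest member stood 14.1-fold above the lowest in replicate 1, and 47.8-fold in replicate 2, or 15.4-fold there without Mrpl23. The third quartile was 2.28-fold the first in replicate 1 and 2.07-fold in replicate 2, against 7.27-fold and 6.97-fold over detected protein-coding genes. The SD of log2 TPM over the members' mean levels was 0.80, and 1.55 when TPM of protein-coding transcripts were used alone. Mrpl32, with a coding TPM of 0, has no log2 value and is left out of the second SD. Over the 77 members log2 TPM of the libraries correlated with Pearson's r 0.917 and Spearman's rho 0.956, and r was 0.969 without Mrpl23. That describes genes measured in the same pair of libraries, which are not independent points. TPM was lower at greater effective length of the transcripts among members (rho -0.36 in replicate 1 and -0.41 in replicate 2), and among all detected protein-coding genes (-0.31 and -0.28). The median effective length of the members was 859 bases, against 2297 bases for protein-coding genes.

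Set beside other lists, the members stood above the genes that run and build the particle. The list of 6 structural proteins with other names counts Oxa1l as the membrane anchor of the particle, not as a protein of the particle itself. All 6 were detected, with medians of 83.04 and 81.9 TPM in replicates 1 and 2. They were Chchd1 (128.8 and 116.2 TPM), Dap3, a GTP-binding protein of the small subunit (117.0 and 106.2 TPM), Aurkaip1 (107.4 and 104.1 TPM), Ptcd3 (58.6 and 59.7 TPM), the membrane insertase Oxa1l (50.2 and 53.1 TPM) and Gadd45gip1 (44.1 and 42.7 TPM). Each lies within the range of the members. All 12 measured translation factors were detected as well, with medians of 27.04 and 23.5 TPM. The elongation factor Tufm led them at 124.2 TPM in replicate 1 and 128.0 TPM in replicate 2, ahead of Gfm1 (70.4 and 71.8 TPM), Tsfm (41.1 and 39.0 TPM) and Mtif2 (36.8 and 30.98 TPM).

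Assembly factors and enzymes that modify the ribosomal RNA had medians of 23.3 and 21.7 TPM in replicates 1 and 2, and 26 of 27 were detected. Malsu1, which keeps the subunits from joining too early, was highest at 49.6 and 64.4 TPM, followed by Fastkd2 (44.7 and 46.6 TPM), Noa1 (46.0 and 44.6 TPM) and Rbfa (47.9 and 40.6 TPM). Gtpbp10 was the one not detected, at 0 TPM in replicate 1 and 0.02 TPM in replicate 2. Of 6 genes for transcription and mRNA handling in mitochondria all were detected, led by the RNA-binding protein Slirp (209.8 and 190.2 TPM), the packaging factor Tfam (94.96 and 79.5 TPM), Lrpprc (47.7 and 54.4 TPM) and the RNA polymerase Polrmt (31.4 and 36.5 TPM). The 36 nuclear complex I genes, part of the machinery that the mitochondrial ribosome also supplies, had medians of 124.3 and 117.8 TPM, and the 83 cytosolic ribosomal protein genes 1240.3 and 1080.4 TPM.

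**Figure D2:**
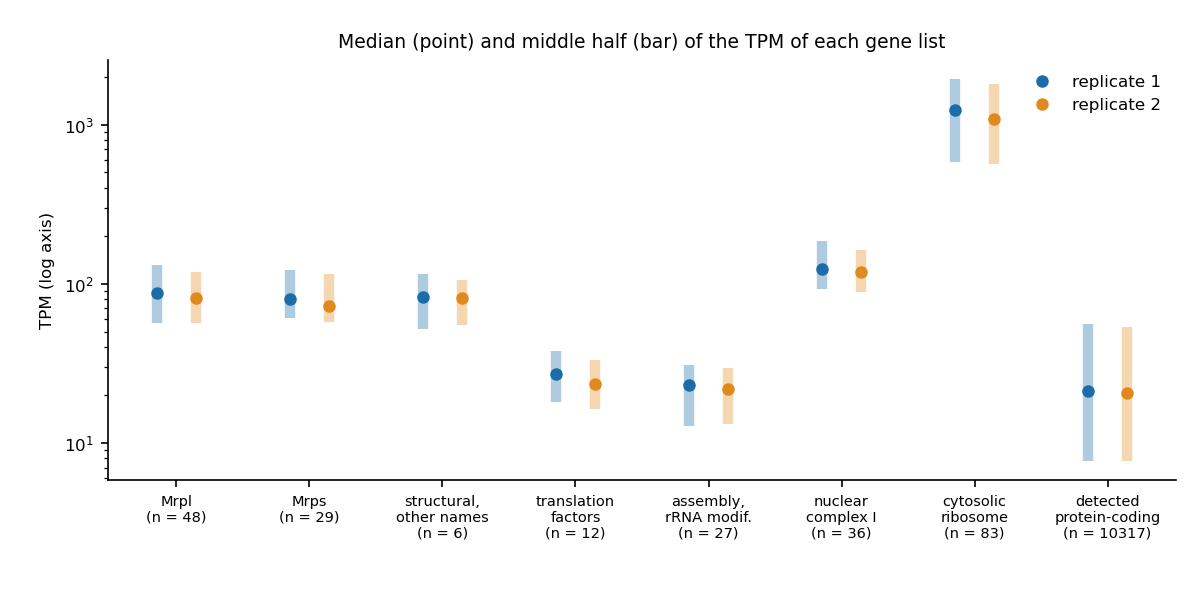
Median TPM (points) and the range from the first to the third quartile (bars), on a log axis, for the Mrpl and Mrps genes and 6 other lists, in replicate 1 (blue) and replicate 2 (orange). Mrpl and Mrps genes lie near the structural proteins with other names, above translation and assembly factors, and below complex I and cytosolic ribosomal genes.

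The libraries differed in the members by more than counting error in many cases, but by small amounts. The 2 expected counts of each gene were set against the library sizes in a two-sided exact binomial test, adjusted by Benjamini-Hochberg over 15340 genes at 0.05, which compares these 2 libraries only. It called 37 of 77 members, against 30.6% of all genes tested. Of these, 28 were higher in replicate 1 (background 15.9%) and 9 were lower (background 14.6%). Among 7931 protein-coding genes with mean counts within the members' range, 36.8% were called, 1349 of them higher and 1572 lower in replicate 1. By subunit, 15 Mrpl genes were higher and 8 lower, and 13 Mrps genes were higher and 1 lower. The median log2 ratio of replicate 1 over replicate 2 was 0.09 over members (0.06 for Mrpl and 0.13 for Mrps) and 0.00 over all genes tested.

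Spread beyond counting error is not part of that test. With a negative binomial exact test from edgeR that treats the libraries as replicates, at a coefficient of variation of 19.8%, 1 member was called (Mrpl23), against 2.54% of all genes tested. Its dispersion was estimated from the same 2 libraries that it compares, so their differences are counted as noise and few calls can result. The log2 ratio of 76 of the 77 members lay within 0.5 of 0 in either direction. The SD over the libraries was under 10% of the mean TPM in 54 members and over 20% in 8, and its median was 7.58%.

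**Figure D3:**
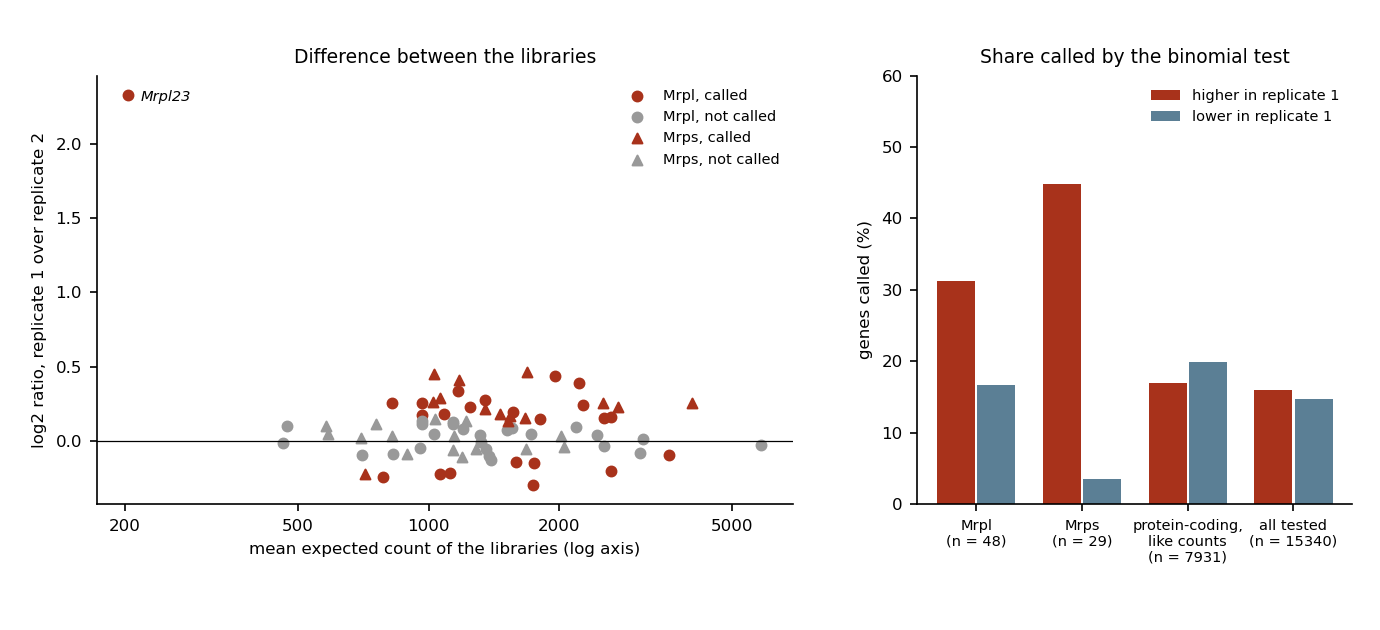
Left, log2 ratio of replicate 1 over replicate 2 against the mean expected count (log axis), with Mrpl genes as circles, Mrps genes as triangles and genes called by the binomial test in red. Right, the percent of Mrpl genes, Mrps genes, protein-coding genes with like counts and all genes tested that were called higher or lower in replicate 1. All members but Mrpl23 lie within 0.5 of 0, and 13 of the 14 Mrps genes called were higher in replicate 1.

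Apart from Mrpl23, the largest ratios upward belonged to members of middle level. Mrps26 had 106.9 TPM in replicate 1 and 74.4 TPM in replicate 2, a log2 ratio of counts of 0.47 (adjusted p = 2.23e-19, exact binomial test). Mrps25 had 70.1 and 45.2 TPM in replicates 1 and 2 and a log2 ratio of 0.45, but 69.8% of its exon bases overlap other genes, mainly Nr2c2, so reads of these genes may not be told apart. Mrpl24 had 121.1 TPM in replicate 1 and 90.2 TPM in replicate 2 with a log2 ratio of 0.43, and Mrps35 had 109.4 and 72.2 TPM with 0.41. For Mrpl24, 26.3% of the exon bases overlap Rrnad1. In the other direction the values were smaller. Mrpl37 had 66.2 TPM in replicate 1 and 90.3 TPM in replicate 2, and its log2 ratio was -0.29 (adjusted p = 2.72e-08, exact binomial test). Mrpl55 had -0.25, Mrps36 -0.23, Mrpl22 -0.22 and Mrpl30 -0.22.

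TPM and counts did not always move alike, because the effective length assigned to a gene could differ between the libraries, in 5 members by over 0.2 on the log2 scale. Mrps5 had a log2 ratio of 0.25 in counts and of 0.47 in TPM, with effective lengths of 749 bases in replicate 1 and 861 bases in replicate 2. Mrpl19 was lower in replicate 1 by counts (-0.15) and higher by TPM (0.18). Signs also differed in Mrpl45 (-0.09 by counts and 0.05 by TPM) and in Mrps17 (-0.05 by counts and 0.16 by TPM). The effective length is a mean over transcripts, weighted by their estimated share.

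Most genes of the mitochondrial genome moved the other way between these libraries. Both ribosomal RNAs, mt-Rnr1 (560.6 and 729.4 TPM in replicates 1 and 2) and mt-Rnr2 (947.1 and 1342 TPM), were called lower in replicate 1. As the libraries were made from polyadenylated RNA, these levels need not follow the amount of ribosomal RNA. Of the 13 mitochondrial protein genes 11 were called lower and 2 higher in replicate 1, with a median log2 ratio of -0.57. Read assignment was unsure, at a posterior SD above 5% of the count, for mt-Co3, mt-Atp6, mt-Co2 and mt-Nd3, which include both genes called higher. The other 9 were all called lower, with log2 ratios from -0.91 to -0.17. In the lists of related nuclear genes, read against the shares of 15.9% higher and 14.6% lower over all genes tested, 1 of 6 structural proteins with other names was called higher and 0 lower in replicate 1, 1 of 12 translation factors higher and 0 lower, 6 of 26 assembly and modification genes higher and 4 lower, 0 of 6 transcription and mRNA handling genes higher and 2 lower, and 1 of 7 regulators higher and 1 lower. Of the 9 B cell markers 1 was called higher and 7 lower in replicate 1, and 0 of the tested markers of other lineages were called. The part of the mitochondrial shift in the members' ratios was not tested.

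Mrpl23, whose protein lies by the exit tunnel, differed most between the libraries and was the one member with unsure read assignment. It had 39.8 TPM in replicate 1 and 6.08 TPM in replicate 2, from expected counts of 334.1 and 72.6, and its log2 ratio was 2.33 (adjusted p = 7.71e-45, exact binomial test). The posterior SD, which the tables give for each count, was 27.7% of the posterior mean count in replicate 1 and 31.6% in replicate 2. A posterior SD above 5% in either library was taken as unsure, which held for 17.1% of all genes tested. No other member exceeded 1.93%.

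A processed pseudogene, Mrpl23-ps1 on chromosome 2 from 74591330 to 74591909, is a near copy of Mrpl23, which lies on chromosome 7 from 142532686 to 142540747. Aligned over 543 bases, the coding transcript Mrpl23-201 and the pseudogene were identical at 541, and the 438 coding bases had 0 mismatches. The first 60 bases of the reading frame, with the start codon in capitals, are the same in both copies.
Mrpl23, chromosome 7: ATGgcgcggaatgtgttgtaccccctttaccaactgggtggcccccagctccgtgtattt
Mrpl23-ps1, chromosome 2: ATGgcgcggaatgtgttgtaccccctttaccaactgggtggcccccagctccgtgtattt

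Of 657 stretches of 36 bases in Mrpl23-201, 505 (76.9%) occur in the pseudogene. The pseudogene held 532.9 expected counts in replicate 1 and 750.4 in replicate 2, where Mrpl23 held 334.1 and 72.6. Summed, the pair had 867 and 823 counts in replicates 1 and 2, or 100.03 and 82.4 TPM (91.2 ± 12.5, SD, n = 2), and the log2 ratio of the sum was 0.21. Mrpl23 took 38.5% of the pair's counts in replicate 1 and 8.83% in replicate 2. The pseudogene was lower in replicate 1 (log2 ratio -0.36), where Mrpl23 was higher. The sum was still called higher in replicate 1 (adjusted p = 0.0107, exact binomial test), an alternative chosen after seeing the data.

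Within Mrpl23 the expected counts of 1 transcript differed most. Mrpl23-202, which is annotated without a coding frame, held 278.6 expected counts in replicate 1 and 0 in replicate 2. The second estimate in the tables, the posterior mean, gave it 84.3% of Mrpl23 in replicate 1 and 40.2% in replicate 2, so the 0 does not show that the transcript was absent. The coding transcript Mrpl23-201 held 34.5 and 39.1 counts in replicates 1 and 2, or 3.23 and 3.29 TPM. The retained intron transcripts Mrpl23-203 (9.88 and 20.8 counts) and Mrpl23-204 (11.2 and 12.7 counts) made up the rest.

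**Figure D4:**
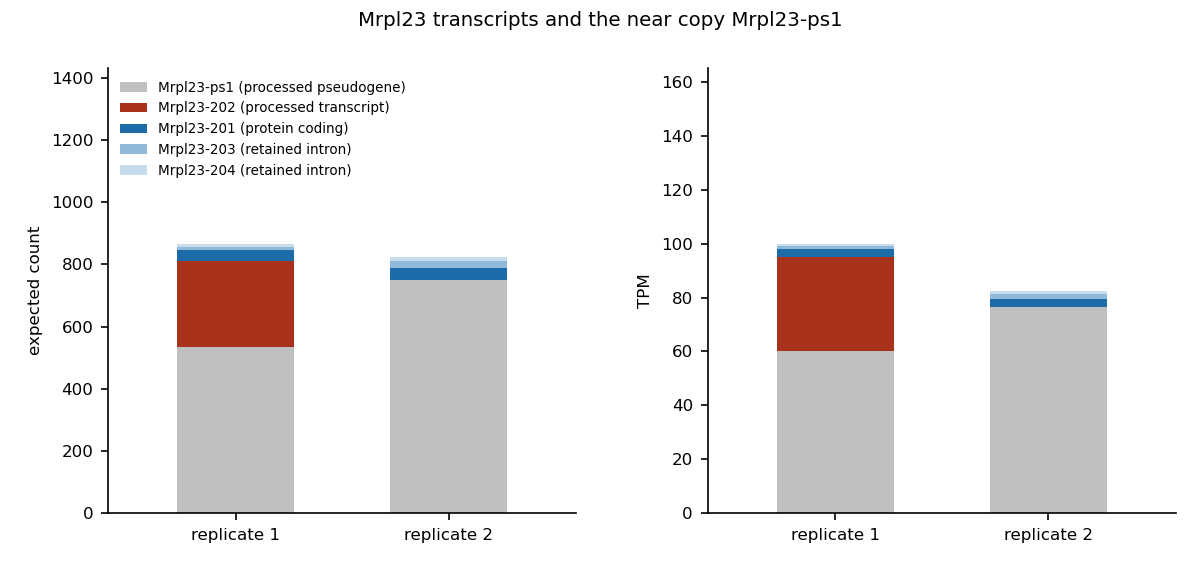
Expected counts (left) and TPM (right) of the 4 Mrpl23 transcripts and of the processed pseudogene Mrpl23-ps1, stacked, in replicate 1 and replicate 2. The sums of 867 and 823 counts are close, and the red block of Mrpl23-202 is present in replicate 1 and at 0 in replicate 2, where the posterior mean gave it 40.2% of Mrpl23.

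Other pseudogenes named after members were low. Mrpl48-ps had 0.84 TPM in replicate 1 and 0.41 TPM in replicate 2, Mrps36-ps2 0.70 and 1.12 TPM, and Mrps36-ps1 and Mrps36-ps3 were at 0 in both. By counting error alone, a 0 still leaves room for up to 3 counts a library. Read assignment was unsure for all of these but Mrps36-ps3. For Mrps36-ps1 the posterior SD was 100.4% and 89.98% of the posterior mean count in replicates 1 and 2. Processed pseudogenes with other names share letters with members as well. Gm6997 holds 27.6% of the stretches of 36 bases in Mrpl22, and Gm6304 holds 25.9% of those in Mrpl27. The levels of these pseudogenes are not given here. Shared letters also arise where genes overlap: 18 members shared over 10% of their exon bases with another gene. The most shared were Mrpl53 (87.97%), Mrps34 (77.8%) and Mrps25 (69.8%). The sources used here do not say whether counting used strand, so these 3 levels may hold reads of their neighbours.

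The members have 275 annotated transcripts in the tables, and 58 members have 2 or more. A leading transcript, by mean percent of the gene, was annotated as protein coding in 62 of 77 members. Coding transcripts together held 75.2% of the members' TPM in replicate 1 and 76.8% in replicate 2, retained introns 8.86% and 8.15%, and transcripts marked for nonsense-mediated decay 8.35% and 8.56%. In 53 of 58 genes the same transcript led in both libraries.

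In 12 members the leading transcript held under 60% in both libraries, and the 6 highest of these include the top member. For Mrpl17 the coding Mrpl17-204 held 41.4% in replicate 1 and 38.02% in replicate 2, and the decay-marked Mrpl17-203 held 39.5% and 37.5%. Mrps5 was led by the retained intron transcript Mrps5-202 (55.4% and 45.9%), and its coding transcripts held 13.5% and 11.4% in replicates 1 and 2. Mrpl3, a protein near the catalytic centre, had coding shares of 5.69% and 5.72% and was led by the decay-marked Mrpl3-204 (53.2% and 59.8%). Most of the TPM of Mrps5 and Mrpl3 thus stood on transcripts annotated as noncoding or decay targets. The same held for members outside these 6. Coding transcripts held 1.66% and 2.58% of Mrps26, and 11.1% and 11.2% of Mrpl15 in replicates 1 and 2. The only measured transcript of Mrpl32 is annotated as a decay target. Its coding share of 0% in both libraries was thus fixed by the annotation and is not a measured choice between transcripts. For Mrpl13 the coding share was 33.55% and 41.48%. Mrps23 was led by the coding Mrps23-201 (41.3% and 40.9%) and Mrpl20 by the noncoding Mrpl20-204 (46.4% and 47.4%). In Mrps18b the leader changed, with Mrps18b-201 at 34.1% in replicate 1 and 52.8% in replicate 2 and Mrps18b-202 at 40.5% and 25.2%. Some leading transcripts were short: Mrps5-202, of 451 bases, held 797.3 and 530.4 expected counts in replicates 1 and 2, while the coding Mrps5-201, of 4481 bases, held 887.0 and 946.9.

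The members lie on 17 chromosomes, with 11 on chromosome 11, 8 on chromosome 17 and 0 on X. Many start next to a gene on the other strand. A start within 1000 bases of the start of a protein-coding gene that runs the opposite way, overlapping starts included, was found for 33 members (42.9%), against 18.4% of detected and 10.9% of all protein-coding genes. Among the partners were Ndufs6 beside Mrpl36, Ndufb5 beside Mrpl47, the helicase Twnk beside Mrpl43 and Sars2, the mitochondrial seryl-tRNA synthetase, beside Mrps12. Mrpl46 and Mrps11, of different subunits, are partners of each other and overlap by 412 bases at their starts in the GENCODE annotation. By the RefSeq starts used for the printed sequences, 78783131 for Mrps11 and 78783089 for Mrpl46, they do not overlap. Mrpl46 had 57.3 and 47.5 TPM in replicates 1 and 2, and Mrps11 had 55.6 and 55.5 TPM.

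RefSeq promoter windows, from 250 bases before to 50 after a start, matched 68 members. Known activators of nuclear genes for mitochondria are NRF1, the ETS factor GABP (Gabpa with Gabpb1) and YY1, and their recognition letters were searched on both strands. The NRF1 core was read as GCGC, then A and any base, then GCGC, the ETS core as CCGGAAG, and YY1 in a short form AANATGGC and in a longer one that overlaps it. A palindromic NRF1 site matches on both strands.

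The NRF1 core was found in 13 of 68 member windows (19.1%), against 12.1% of 8236 windows of detected protein-coding genes and 4.81% of all 27025 windows. By subunit it was in 10 of 42 Mrpl windows (23.8%) and in 3 of 26 Mrps windows (11.5%), the second near the share of detected genes. The ETS core was in 33.8% of member windows, against 21.1% of detected and 9.16% of all windows. YY1's short core was in 30.9%, against 10.1% of detected and 6.20% of all windows, and the longer core in 7.35%, against 1.96% and 0.70%. In most members with the short core a match lay after the start, as at base 19 in Mrps7 and base 21 in Mrpl58 and Mrpl11. The short core holds the letters ATG of a start codon, and whether these matches are start codons was not tested. The TATA box letters TATAAA were in 5.88% of member windows, against 6.28% of detected and 14.2% of all windows, and the E box CACGTG in 7.35%, 10.5% and 7.20%. For each of these motifs, detected genes as a whole already differ from all windows. Member windows had a median observed-to-expected CpG ratio of 0.82, against 0.79 for detected genes and 0.39 for all windows.

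**Figure D5:**
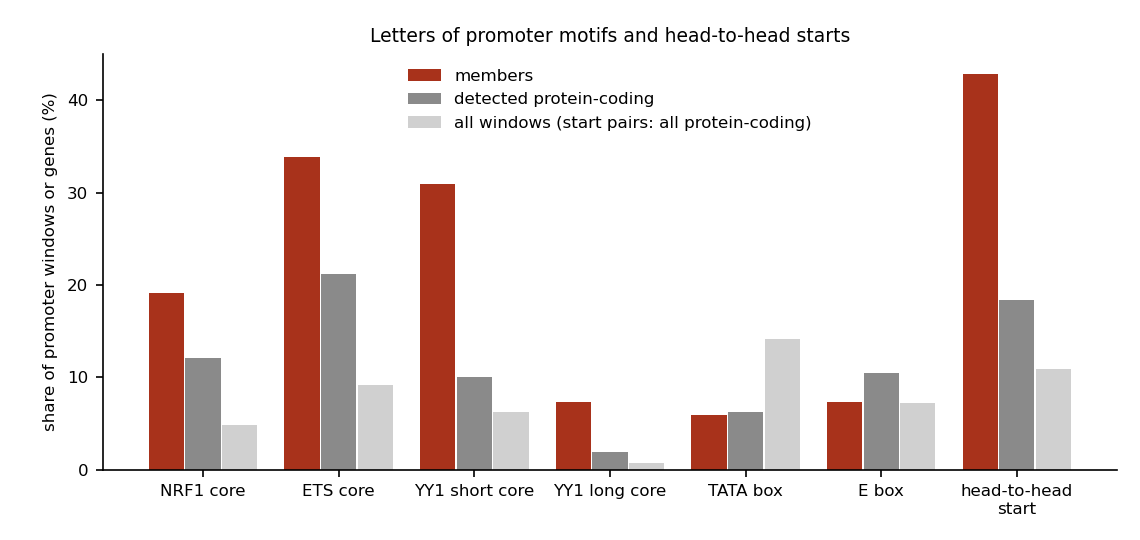
Percent of promoter windows that hold the letters of each motif, and percent of genes with a head-to-head start, for members (red), detected protein-coding genes (dark grey) and all windows or all protein-coding genes (light grey). Members as a whole stand above both other sets for the NRF1, ETS and YY1 cores and for head-to-head starts, and below all windows for the TATA box.

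NRF1 letters stood in the windows of the 3 highest members, Mrpl17, Mrpl12 and Mrps21, printed above, and also in those of Mrpl14 (52.2 and 45.6 TPM in replicates 1 and 2) and Mrpl57 (31.6 and 29.5 TPM). The 13 members with it had a median of 90.6 TPM and the 55 without it 78.8 TPM, as mean levels over the libraries. With the ETS core the median was 99.9 TPM over 23 members, and 75.5 TPM over the 45 without. With the YY1 short core the median was 69.3 TPM over 21 members, and 88.1 TPM over the 47 without. A match of letters is not a measured binding site. The genes of the factors were expressed, with Nrf1 at 32.2 and 31.8 TPM in replicates 1 and 2, Gabpa at 64.7 and 59.9 TPM, Yy1 at 49.9 and 50.5 TPM and Gabpb1 at 40.2 and 36.9 TPM. Of the 8 regulators listed 7 were detected, including the coactivator Pprc1 (53.2 and 52.6 TPM), and its relative Ppargc1a was not, at 0 TPM in replicate 1 and 0.01 TPM in replicate 2.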

How the data were processed

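Per the labels, both libraries are polyA RNA-seq of CH12.LX, biological replicates 1 and 2. Each has a table of genes and one of transcripts on mm10 with GENCODE M4, per the file headers. Aligner, quantifier, versions and strand setting: not given in the sources used here. As deposited, expected counts are estimated reads per gene that the authors split between genes with shared sequence. The deposited TPM and FPKM are the authors' values, corrected for length and scaled to each library. Deposited posterior mean counts and their SD are a second estimate with its uncertainty, and the deposited percent of each transcript is its share of the gene. Names, coordinates and transcript types came from GENCODE M21 (GRCm38, which is mm10), where 42462 of 43346 Ensembl entries matched. Transcript types thus come from a later annotation than the one of the files. Entries with a number as identifier (26248, 0.0426% and 0.0539% of counts) and 97 spike-ins at 0 counts stayed out of library sizes and tests.

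Counts were rounded for tests. Library sizes were TMM effective sizes (edgeR 4.0.16, R 4.3.3), genes needed 10 counts over both libraries, and log2 ratios used a pseudocount of 0.5. A quasi-likelihood fit was not possible with 1 library a side, so an exact binomial test was used. It was tried on simulated counts with counting error alone, which says nothing about spread beyond that error. Shares have Wilson 95% intervals. Libraries of separate biosamples form 1 group, and mean ± SD is over n = 2.

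Members and lists were chosen with earlier results of these data known. Named with values were the 6 highest and 6 lowest members of each subunit, the 5 largest called ratios in each direction, members with unsure read assignment, members of special role, the 6 highest of the genes with a divided transcript use, and of other lists the 4 highest, those not detected and every structural protein. Further genes, such as Mrpl14, Mrpl19, Mrpl53 and Mrps34, were named after their values were seen. Mtres1, the other listed translation factor, was not analysed here. RefSeq promoter windows of GRCm38.p6 matched 68 members by symbol. Those not matched were Mrpl38, Mrps35, Mrpl15, Mrpl13, Mrpl4, Mrpl54, Mrps34, Mrps28 and Mrpl19. Alternatives covered thresholds, units, pseudocounts, size factors of DESeq2 1.42.0, count minimums, read assignment and either library left out. 1 erythroid marker is not reported here.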

Additional observations from a re-analysis of the deposited data

How the results depend on the processing

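All 77 members were detected at 0.5 and at 5 TPM, at 1 FPKM, at 1 posterior mean TPM and in either library alone. The median level of 84.2 TPM became 59.8 in FPKM, and 63.2 TPM with coding transcripts only. Leaving out a library gave 76.6 to 85.1 TPM. The large subunit stayed above the small subunit under each alternative run, but none of these counted the structural proteins with other names. The log2 gap of 0.13 became 0.11 with subunits taken by place in the particle, 0.068 with coding transcripts only and 0.16 with the Mrpl33 entry added. Leaving out a library gave 0.14 to 0.16. The settings with coding transcripts and with Mrpl33 were chosen after seeing the data. Of the 37 calls between the libraries, 28 higher and 9 lower, the negative binomial exact test of edgeR called 1 (1 higher and 0 lower), also 1 at an unadjusted p under 0.05, with a dispersion estimated from the same 2 libraries. Other size factors, count minimums and estimates gave 36 to 39 calls, and the 10 named log2 ratios kept their sign. That of Mrpl23 was 1.55 with posterior mean counts and 0.21 with Mrpl23-ps1 added, a sum chosen after seeing the data. The share of the libraries was 0.487% of counts and 0.720% of TPM, and leaving out a library gave 0.469% to 0.504%. With windows of 100 bases before to 50 after the start, the TATA box was in 1 member in place of 4 and the E box in 2 in place of 5. Calls between the libraries need both, so leaving 1 out gave no value. No paired analysis was possible because both libraries form 1 group. The SD of log2 TPM over members, 0.80, became 1.55 with coding transcripts only, where Mrpl32 dropped out at a coding TPM of 0. Library sizes without the mitochondrial genome gave 37 calls, but trimmed size factors hardly depend on those genes. With 2 libraries, the spread between them is known only roughly.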
